A study of Mus musculus with 24 samples.

Results

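The genes described here encode the proteasome, and they were taken from an RNA table of 54838 mouse genes. A gene was included when it was annotated as protein-coding and its symbol began with Psma, Psmb, Psmc, Psmd, Psme, Psmf or Psmg followed by a digit, with the immunoproteasome genes Psmb8, Psmb9 and Psmb10 left out. This gave 47 genes, of which 45 reached 1 FPKM (fragments corrected for transcript length and sequencing depth) in at least 5 libraries and were tested among 12899 genes. They comprised 7 of 8 alpha ring genes, 7 of 8 beta ring genes, 6 ATPases, 3 base scaffold and ubiquitin receptor genes, 8 lid genes, 3 assembly chaperones of the cap, 5 activators, 1 inhibitor and 4 assembly chaperones of the core. The last gene, Psmc3ip, carries a matching symbol but encodes a cofactor of meiotic recombination and no proteasome subunit. The genes below the filter, Psma8, a testis-specific alpha subunit, and Psmb11, the beta subunit of thymic epithelium, were at 0 FPKM in all 20 libraries.

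RNA was sequenced in 20 libraries from organoids of the mouse ventral prostate, that is, cultures of epithelial cells in domes of basement membrane gel (Matrigel). The T-ERG organoids had the genotype named Tmprss2-ERG, and the control organoids had the genotype named Tmprss2-fl/fl-ERG, so both names hold the prostate protease gene Tmprss2 and the ETS-family transcription factor ERG. Each genotype had 10 libraries, made of 5 domes from each of 2 clones. The organoids came from mice aged 4 months, 3000 single cells were seeded per dome of 30 µL, and each library holds the RNA of 1 dome. The domes are technical replicates of a clone, so p-values between clones measure the spread between domes only. The sources used here do not state whether 2 clones of the same genotype derive from different mice, nor in which cells of the mouse the ERG allele was active. The genotype was therefore compared on 4 clone means. Because 2 columns of T-ERG clone 2 shared a header number, their libraries go by unnumbered a and b.

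The proteasome is the protease complex that degrades proteins marked with chains of ubiquitin. Its barrel-shaped 20S core is built of outer alpha rings, which gate the entrance, and inner beta rings, which hold the proteolytic sites. The 19S cap binds the core and consists of a base, whose ATPases unfold the substrate, and a lid, which removes the ubiquitin. Cells that lose proteasome activity raise the genes of the core and the cap together, largely through the transcription factor NRF1 (Nfe2l1), which binds antioxidant response elements.

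Promoters are shown because ERG belongs to a family that binds a GGAA core and because NRF1 binds elements that begin with TGAC and end with GC. RefSeq promoters on GRCm38.p6, from 250 bases before to 50 bases after the start site, were matched by symbol for 39 of the 47 genes, of which 38 were tested. The letters CCGGAA, searched on both strands, occurred in 21 of these 38 promoters (55.3%), in 33% of 9191 promoters of tested genes and in 16.7% of all 27025 promoters. The letters TGACNNNGC, also on both strands, occurred in 6 of 38 (15.8%), in 17.1% of tested genes and in 14% of all promoters. A total of 13 motifs were searched and these were picked with results of these data in view. The stretches below hold 60 bases upstream of the start site, on the strand of the gene, for genes whose values are given further on, with each match in capitals. They end at the base before the start site, except that of Psmc5, which covers positions -122 to -63, and that of Psmb5, which covers -74 to -15. The promoter of Psmb6 uses a start site downstream of the annotated gene start at position 70525324. The later part of its stretch, with the match, therefore lies inside the annotated gene. For CCGGAA (or TTCCGG, the same letters on the other strand) they are:
Psmd11, chr11:80428555-80428614, plus strand: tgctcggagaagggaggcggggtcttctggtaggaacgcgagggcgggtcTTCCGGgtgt
Psmc1, chr12:100110142-100110201, plus strand: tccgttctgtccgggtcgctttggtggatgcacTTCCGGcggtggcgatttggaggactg
Psmc5, chr11:106256063-106256122, plus strand: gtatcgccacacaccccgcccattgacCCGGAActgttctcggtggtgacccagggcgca
Psmd13, chr7:140882334-140882393, plus strand: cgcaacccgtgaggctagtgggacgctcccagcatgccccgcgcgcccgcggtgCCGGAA
Psme4, chr11:30771715-30771774, plus strand: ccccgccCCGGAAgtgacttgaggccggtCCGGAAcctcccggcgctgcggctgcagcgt
Psmd10, chrX:140956712-140956771, minus strand: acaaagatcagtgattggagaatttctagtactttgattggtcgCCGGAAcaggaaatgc
For TGACNNNGC they are:
Psmb6, chr11:70525297-70525356, plus strand: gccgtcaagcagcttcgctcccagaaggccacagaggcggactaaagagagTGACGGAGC
Psmb5, chr14:54618010-54618069, minus strand: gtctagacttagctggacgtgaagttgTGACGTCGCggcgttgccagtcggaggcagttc
Among the 38 tested genes with a promoter, the median difference T-ERG minus control, in log2(FPKM + 1) units, was 0.30 with CCGGAA and 0.29 without it. It was 0.23 with TGACNNNGC and 0.30 without it. The longer CCGGAAGT, which contains CCGGAA, occurred in 9 of 38 (23.7%), in 9.73% of tested genes and in 4.31% of all promoters, with medians of 0.40 with it and 0.29 without it. TGAGNNNGC occurred in 13 of 38 (34.2%), in 23.2% of tested genes and in 19.8% of all promoters, with medians of 0.30 and 0.29. The other 9 were TGANNNNGC, whose matches include those of both TGA elements, GCATGCGC and the longer forms of this nuclear respiratory factor motif, the ZNF143 motif (in 0 of 38), the CCAAT box, the E-box CACGTG, the GC box GGGCGG and the TATA box TATAAA. Over all motifs the median ran from 0.23 to 0.42 in genes with a match and from 0.29 to 0.35 in genes without. A match is a description of these letters and not of binding.

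The deposited FPKM values summed to 728255 to 794589 per library. The estimated relative depth differed 1.41-fold between the deepest and the shallowest library, and the absolute depth is unknown. Basal keratin genes were abundant, with Krt5 at 7009 to 9895 FPKM in T-ERG and 4801 to 5874 FPKM in control libraries. Of 4 basal markers, 3 had clone means that did not overlap with T-ERG higher (21.7% of all tested genes) and 1, Krt15, with T-ERG lower (23.2%). Krt15 was also lower in clone 2 than in clone 1, by -1.01 ± 0.03 within T-ERG (limma adjusted p = 4.75e-09) and by -0.90 ± 0.04 within control (limma adjusted p = 2.28e-08). The secretory marker Pbsn, which defines mature prostate luminal cells, was at 0 in all libraries. The summed level of 6 stromal markers was at most 3.01 FPKM and that of 2 endothelial markers at most 0.64 FPKM, and 3 of 4 immune markers (Ptprc, Cd3e and Adgre1) were at 0. The fourth, the macrophage marker Cd68, was at 0.67 to 5.89 FPKM in T-ERG and 4.34 to 12.2 FPKM in control libraries, and was higher in control clone 2 than in control clone 1 by 0.57 ± 0.18 (limma adjusted p = 0.0286).

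Proteasome genes took up the largest share of the RNA in T-ERG clone 2 and the smallest in control clone 1. The 47 genes held 0.676% ± 0.00642 of the FPKM sum in T-ERG clone 2, 0.620% ± 0.00770 in T-ERG clone 1, 0.607% ± 0.0101 in control clone 2 and 0.500% ± 0.00836 in control clone 1 (SD, n = 5 domes each). The ranges of T-ERG clone 1 (0.614% to 0.632%) and control clone 2 (0.596% to 0.620%) overlapped, and the other neighbours in this order did not. Of the 45 tested genes, 34 had their highest clone mean in T-ERG clone 2 and 39 had their lowest in control clone 1. In bulk RNA, more transcript per cell and more cells with the transcript cannot be told apart. The heat map of the genes by library shows these blocks.

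**Figure D1:**
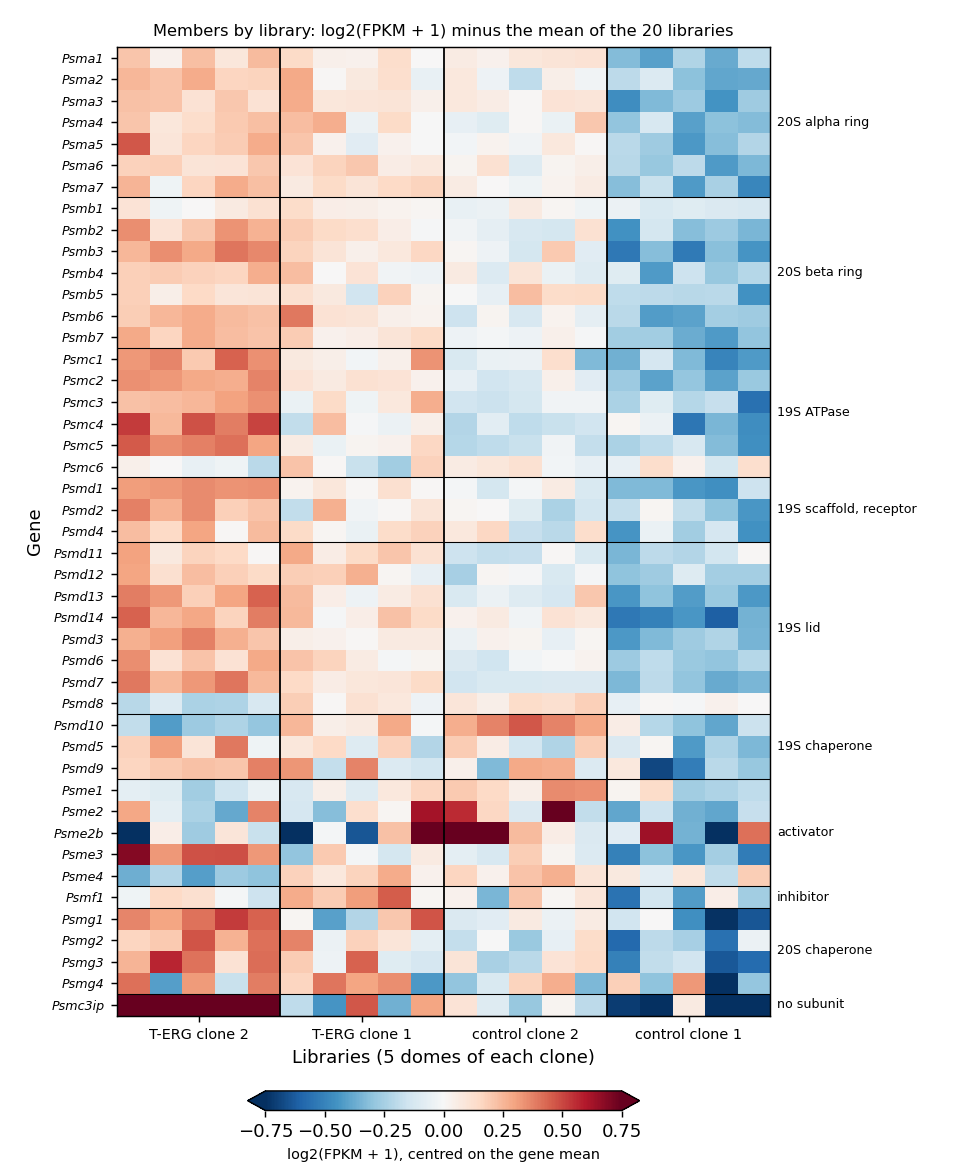
Each row is a tested gene, ordered by role, and each column is 1 of the 20 libraries, in blocks of 5 domes per clone; the colour is log2(FPKM + 1) minus the mean of the gene over all libraries, with colours saturating at the ends of the bar. Most core and cap genes are red in T-ERG clone 2 and blue in control clone 1, while Psmd8, Psmd10 and Psme4 are blue in T-ERG clone 2.

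Markers of cell division were also highest in T-ERG clone 2 and lowest in control clone 1. The summed level of 12 proliferation genes was 767.5 ± 11.5 FPKM in T-ERG clone 2, 455 ± 11.8 FPKM in T-ERG clone 1, 470.1 ± 6.78 FPKM in control clone 2 and 241 ± 16.0 FPKM in control clone 1 (SD, n = 5 domes). In limma, 11 of 12 were higher in T-ERG clone 2 than in T-ERG clone 1 (17% of all tested genes), and 12 of 12 were higher in control clone 2 than in control clone 1 (25.1%). Between the genotypes 0 of 12 passed (0% of all tested genes), and 5 had separated clone means with T-ERG higher (21.7%). The summed level of 6 luminal markers was 384 ± 8.04 FPKM in T-ERG clone 2, 422 ± 12.9 in T-ERG clone 1, 708.5 ± 11.5 in control clone 2 and 505 ± 21.2 in control clone 1. Its members did not move together. Of the 5 that were tested, Krt8 and Krt18 were higher in T-ERG clone 2 than in T-ERG clone 1, by 0.60 ± 0.05 and 0.96 ± 0.06, while Cd24a and Foxa1 were lower, by -0.53 ± 0.04 and -0.64 ± 0.06 (limma adjusted p at most 1.68e-05). The part of cell division and of luminal cells in the proteasome differences was not tested.

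The core and the cap shared the order of the total, at different levels. The 14 tested core genes averaged 173 ± 4.18 FPKM per gene in T-ERG clone 2, 162 ± 7.03 in T-ERG clone 1, 152 ± 2.85 in control clone 2 and 123 ± 2.12 in control clone 1 (SD, n = 5 domes). The 17 cap subunits averaged 131 ± 2.95 FPKM in T-ERG clone 2, 117 ± 2.74 in T-ERG clone 1, 107.5 ± 1.26 in control clone 2 and 93.7 ± 3.97 in control clone 1. For the core the libraries of the T-ERG clones overlapped, at 166.5 to 177.3 FPKM in clone 2 and 156.2 to 173.5 FPKM in clone 1, and for the cap no clones did. Over all libraries, the 31 core and cap subunits lay between 70.5 FPKM for Psmc6 and 207 FPKM for Psmb6, a 2.94-fold range, on a scale that is already corrected for transcript length.

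The ratio of cap to core did not follow the genotype. The mean level per cap subunit was 0.756 ± 0.0136 of the mean level per core subunit in T-ERG clone 2, 0.725 ± 0.0308 in T-ERG clone 1, 0.706 ± 0.0107 in control clone 2 and 0.763 ± 0.0241 in control clone 1 (SD, n = 5 domes). Within the cap, the ATPases stood highest against the lid in T-ERG clone 2, with a ratio of 1.24 ± 0.0309, compared with 1.09 ± 0.0919 in T-ERG clone 1, 1.05 ± 0.0546 in control clone 2 and 1.10 ± 0.0891 in control clone 1. The lowest of the 5 ratios in T-ERG clone 2, 1.21, lay below the highest in T-ERG clone 1, 1.23, so these clones overlapped.

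**Figure D2:**
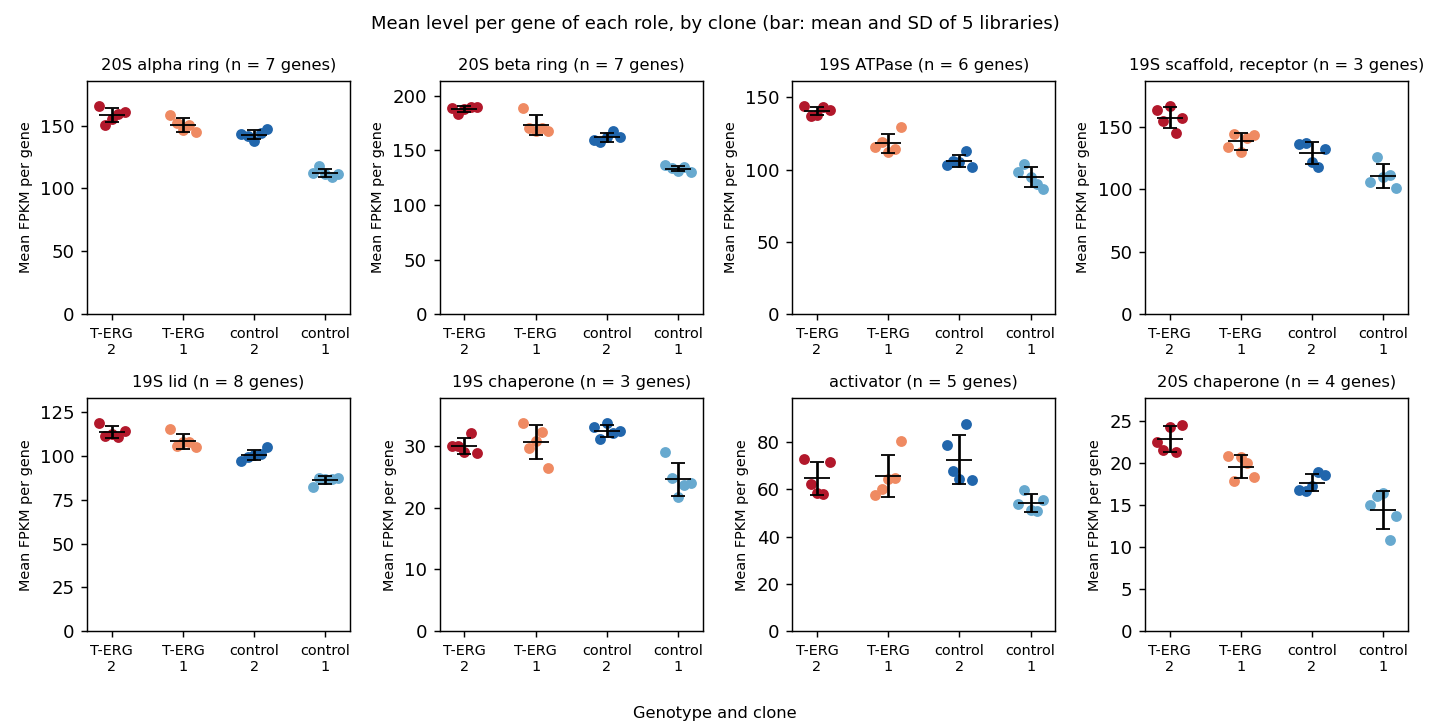
Each panel plots the mean FPKM per gene of 1 role in each library (points) and the mean and SD of the 5 domes (black) for T-ERG clone 2, T-ERG clone 1, control clone 2 and control clone 1. Core, cap and core chaperone genes descend in that order, whereas activators and cap chaperones do not.

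Between the genotypes, no proteasome gene passed the test, and most differences nonetheless pointed upwards in T-ERG. The comparison asks how organoids of the Tmprss2-ERG genotype differ from control organoids. In limma's moderated test on 4 clone means, 0 of 45 genes passed the adjusted threshold of 0.05, and 0% of all 12899 genes did (smallest adjusted p = 0.281). At an unadjusted p below 0.05, 1 of 45 genes and 1089 of all genes (8.44%) were counted. The 20 libraries taken as independent samples gave 34 called proteasome genes among 4737 called genes, and a fit with the clone as a random block gave 12 among 1398, but both use domes as replicates of the genotype. The median difference was 0.30 log2 units over the 45 genes, 0.43 without control clone 2, 0.18 without control clone 1 and 0.01 over all genes. The difference was above 0 for 39 of 45 genes, against 50.8% of all genes. The clone means did not overlap, with T-ERG higher, for 35 of 45 genes, against a background of 21.7%, and, with T-ERG lower, for 2 genes, Psmc6 and Psme2b, against 23.2%. The count of lower genes was 0 without control replicate 2, control replicate 5 or T-ERG replicate 3 and 1 without T-ERG replicate 1 or 4. In these leave-outs 22.5% to 23.3% of all genes were lower. The count was 6 without T-ERG clone 1 (36.3% of all genes) and 7 without control clone 1 (40.3% of all genes). With all 20 libraries, the genotypes did not overlap for 3 genes that were higher in T-ERG, Psmb6, Psmd7 and Psmd11 (background 2.5%), and for 0 genes that were lower (background 3.7%). The narrow margins of Psmb6 and Psmd11 depend on library scale. Their lowest T-ERG libraries, clone 1 replicate 5 and unnumbered b, had FPKM sums of 771513 and 763630. The highest control library of both genes, replicate 8, had 749403. Relative to these sums, the control value was the higher one for both genes, so their separation was lost. Psmd7 kept its separation.

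**Figure D3:**
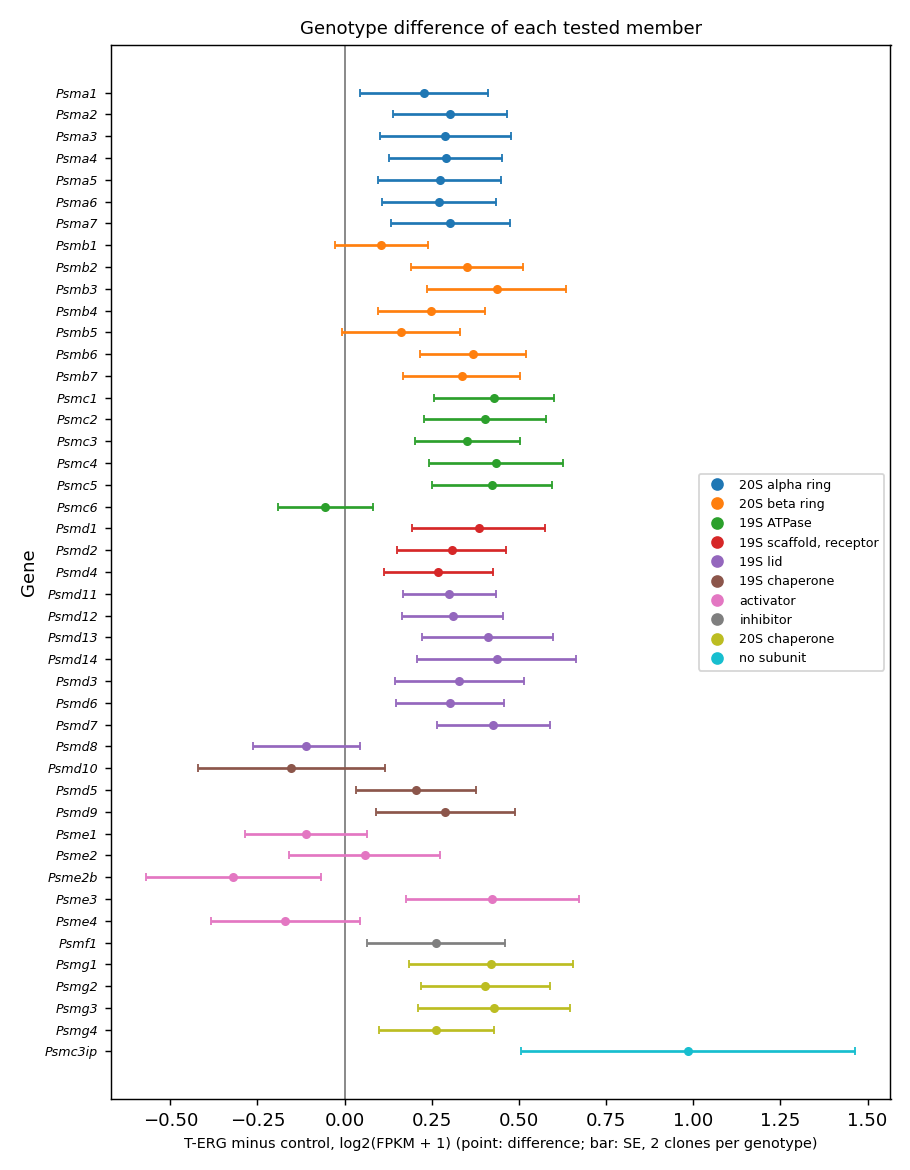
Points are the differences T-ERG minus control in log2(FPKM + 1) and bars are their SE on 2 clones per genotype, coloured by role. Of the 45 genes, 39 lie to the right of 0, and Psmc6, Psmd8, Psmd10, Psme1, Psme2b and Psme4 lie to its left.

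In the alpha ring, 6 of 7 clone means were separated with T-ERG higher (background 21.7%), and the differences were alike, from 0.23 to 0.30 log2 units. Psma2 had the smallest p of the ring, at 72.5 to 92.1 FPKM with a median of 84.6 in T-ERG and 57.4 to 79.9 FPKM with a median of 68.0 in control libraries, a difference of 0.30 ± 0.16 (SE, limma adjusted p = 0.580). Psma1 had the largest, at 123 to 145 FPKM in T-ERG and 92.5 to 133 FPKM in control libraries, a difference of 0.23 ± 0.18 (limma adjusted p = 0.666). In Psma1 the clone means of T-ERG clone 1, 129 FPKM, and control clone 2, 129.95 FPKM, were nearly equal, and so were not separated.

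The proteolytic sites sit in the beta ring, on Psmb5 (chymotrypsin-like), Psmb6 (caspase-like) and Psmb7 (trypsin-like). Psmb6 was at 233, 239, 242, 244 and 248 FPKM in T-ERG clone 2, at 208, 210.2, 219, 221 and 269.8 FPKM in T-ERG clone 1, at 183, 188, 195, 208 and 208 FPKM in control clone 2 and at 153, 154, 170.05, 171 and 178 FPKM in control clone 1. No control library reached a T-ERG library, although the lowest T-ERG value, 208.07 FPKM, and the highest control value, 207.97 FPKM, were nearly equal. The difference was 0.37 ± 0.15 log2 units, with a 95% interval of -0.03 to 0.77 (limma adjusted p = 0.574).

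Psmb7 was at 179 to 195 FPKM in T-ERG clone 2, 163 to 183 FPKM in T-ERG clone 1, 155 to 164 FPKM in control clone 2 and 119 to 133 FPKM in control clone 1, a genotype difference of 0.34 ± 0.17. Psmb5, the main target of clinical proteasome inhibitors, was at 189.55 to 208 FPKM in T-ERG clone 2, 167 to 207 FPKM in T-ERG clone 1, 176 to 216 FPKM in control clone 2 and 134 to 161 FPKM in control clone 1. Its clone means overlapped, and its difference of 0.16 ± 0.17 (interval -0.28 to 0.61, limma adjusted p = 0.734) became -0.01 without control clone 1. Among the structural subunits, Psmb3 had the largest difference of the ring, 0.44 ± 0.20, and Psmb1 the smallest, 0.11 ± 0.13, with 110.1 to 124 FPKM in T-ERG and 104 to 118 FPKM in control libraries.

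Of the 6 ATPases, which form the ring that unfolds substrates, 5 had separated clone means with T-ERG higher (background 21.7%). Psmc1 was at 176, 192, 195, 198 and 208 FPKM in T-ERG clone 2, at 151, 158, 158, 161 and 194 FPKM in T-ERG clone 1, at 122, 142, 148, 149 and 167 FPKM in control clone 2 and at 109, 114, 119, 121 and 141 FPKM in control clone 1. The genotypes overlapped only through the highest library of control clone 2, which lay above 4 libraries of T-ERG clone 1, and the difference was 0.43 ± 0.17 log2 units (limma adjusted p = 0.574). Psmc4, the ATPase bound by gankyrin, had a difference of 0.44 ± 0.19. The sixth, Psmc6, stood apart from the ring, with 58.6 to 81.7 FPKM and a median of 69.7 in T-ERG and 64.1 to 77.1 FPKM and a median of 72.5 in control libraries. Its difference was -0.05 ± 0.14, with an interval of -0.41 to 0.30 (limma adjusted p = 0.890).

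All 3 base scaffold and receptor genes had separated clone means with T-ERG higher (background 21.7%). Psmd1, a scaffold of the base, was at 87.8 to 90.3 FPKM in T-ERG clone 2 and 70.7 to 76.5 FPKM in T-ERG clone 1. It was at 64.3 to 73.4 FPKM in control clone 2 and 50.9 to 63.2 FPKM in control clone 1. The difference was 0.38 ± 0.19 log2 units. Psmd4, the ubiquitin receptor, had a difference of 0.27 ± 0.16, and its libraries overlapped, at 179 to 227 FPKM in T-ERG and 134 to 205 FPKM in control.

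In the lid, 7 of 8 clone means were separated with T-ERG higher (background 21.7%). Psmd7, the partner of the lid's deubiquitinase, was at 117, 117, 124, 130.15 and 131 FPKM in T-ERG clone 2, at 102, 105, 105, 109 and 109.7 FPKM in T-ERG clone 1, at 89.2, 90.9, 91.0, 91.5 and 91.6 FPKM in control clone 2 and at 75.8, 77.5, 78.0, 80.0 and 85.9 FPKM in control clone 1. The 4 clones did not overlap with one another. The difference of 0.43 ± 0.16 log2 units (interval 0.00 to 0.85) had an unadjusted p of 0.0491 and an adjusted p of 0.574 in limma.

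Psmd11, the lid subunit that clamps the lid onto the core, was at 79.6, 83.2, 87.6, 88.6 and 97.7 FPKM in T-ERG clone 2, at 82.2, 85.6, 87.5, 91.3 and 96.2 FPKM in T-ERG clone 1, at 69.8, 69.8, 70.9, 72.8 and 79.5 FPKM in control clone 2 and at 62.1, 67.7, 68.7, 71.7 and 79.5 FPKM in control clone 1. The clones of each genotype overlapped and the genotypes did not, by a margin of 79.55 FPKM in T-ERG to 79.53 FPKM in control. The difference was 0.30 ± 0.13 log2 units (limma adjusted p = 0.574).

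Psmd14, the deubiquitinase itself, had the largest lid difference, 0.44 ± 0.23 log2 units, and the genotypes overlapped because control clone 2, at 82.9 to 91.1 FPKM, reached into T-ERG clone 1, at 83.8 to 99.8 FPKM. Psmd8 was the exception of the lid. It was at 169 to 227 FPKM in T-ERG and 191 to 225 FPKM in control libraries, a difference of -0.11 ± 0.15 (limma adjusted p = 0.800).

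The plot of 8 genes by library shows these patterns side by side.

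**Figure D4:**
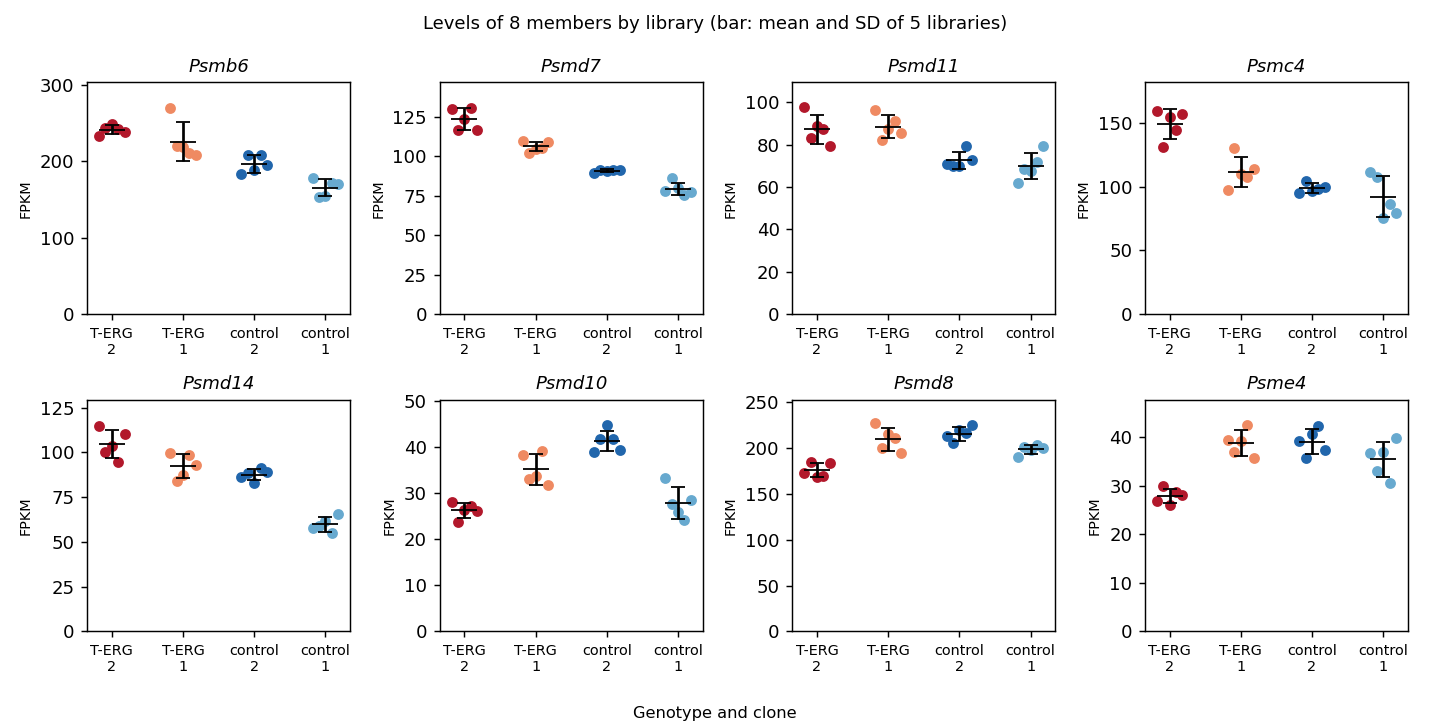
Each panel plots the FPKM of 1 gene in the 5 libraries of each clone (points) with their mean and SD (black). All T-ERG points lie above all control points for Psmb6, Psmd7 and Psmd11, Psmd14 is lowest in control clone 1, and Psmd10, Psmd8 and Psme4 are lower in T-ERG clone 2 than in T-ERG clone 1.

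The activators replace the cap at the ends of the core. Of these, 0 of 5 had clone means separated with T-ERG higher (background 21.7%), which is not far from the background for so few genes. Psme3, the nuclear activator PA28 gamma, had a difference of 0.42 ± 0.25 log2 units. Its clone means of 55.0 FPKM in T-ERG clone 1 and 55.5 FPKM in control clone 2 were nearly equal. Psme2, a subunit of the interferon-induced activator PA28, had 0.06 ± 0.22. Psme1, the other subunit of PA28, had -0.11 ± 0.17 and Psme4, the activator PA200, -0.17 ± 0.21. Psme2b lay at only 1.20 to 5.67 FPKM in T-ERG and 1.06 to 6.57 FPKM in control libraries, with a difference of -0.32 ± 0.25, and its values are uncertain because it is a near-copy of Psme2 and may share its reads. The inhibitor Psmf1 (PI31) was at 11.6 to 18.2 FPKM in T-ERG and 8.58 to 15.2 FPKM in control libraries, a difference of 0.26 ± 0.20.

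All 4 chaperones that assemble the core, Psmg1 to Psmg4, had clone means separated with T-ERG higher (background 21.7%), at levels of 7.38 to 29.5 FPKM. Their differences were 0.42 ± 0.23 for Psmg1, 0.40 ± 0.18 for Psmg2, 0.43 ± 0.22 for Psmg3 and 0.26 ± 0.16 log2 units for Psmg4. Of the chaperones that assemble the cap's base, Psmd9 had 0.29 ± 0.20 and Psmd10, known as gankyrin, -0.15 ± 0.27. Psmc3ip, the recombination cofactor, had the largest difference of all 45 genes, 0.99 ± 0.48, at 2.76 to 10.6 FPKM in T-ERG and 0.85 to 4.50 FPKM in control libraries.

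The clones closest in level across the genotypes were T-ERG clone 1 and control clone 2. Their libraries did not overlap for 4 of 45 genes that were higher in T-ERG clone 1, namely Psma7, Psmb6, Psmd7 and Psmd11 (background 7.49%), and for 0 genes that were lower (background 12.8%). These counts use the deposited FPKM values, without scaling of the libraries to equal sums. Relative to the FPKM sums of the libraries, Psma7 and Psmb6 overlapped between these clones. Psma7, a gene of the alpha ring, was at 214 to 229 FPKM in T-ERG clone 1 and 199.5 to 213 FPKM in control clone 2.

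Within control, clone 2 carried higher levels of most proteasome genes than clone 1. In limma on 5 against 5 domes, 29 of 45 genes were higher in clone 2 (background 25.1%) and 0 were lower (background 13.2%), and the difference was above 0 for 45 of 45 genes (background 61.4%). The median difference was 0.27 log2 units, against 0.10 over all genes. With each library centred on its median the count was 17 and the median 0.18, and after quantile normalization 16 genes passed. Over all 12899 genes, 3233 were higher and 1706 lower in control clone 2. This split became 2390 and 2287 with centring, and 2354 and 2295 with quantile normalization. A total of 16 calls were kept under every alternative tried, while 6 were lost when single libraries were left out (Psmb4, Psmc1, Psmc3ip, Psme2, Psmg1 and Psmg3).

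By role, 7 of 7 alpha genes, 6 of 7 beta genes and 6 of 8 lid genes were higher in control clone 2 (25.1% of all tested genes). Of the other cap subunits, 2 of 6 ATPases and 1 of 3 base scaffold and receptor genes were higher. Both median centring and quantile normalization ended the calls of Psma2, Psmb2, Psmb4, Psmb6, Psmc1, Psmd6, Psmd7 and Psmd8. They also ended those of Psme1, Psme2, Psmg1 and Psmg3, and quantile normalization that of Psmc3ip. Psma3, an alpha ring gene, was at 197, 204, 207, 209 and 210.2 FPKM in control clone 2 and at 141, 143, 155, 162 and 162 FPKM in control clone 1, a difference of 0.43 ± 0.05 (limma adjusted p = 2.87e-05). Psmd14, the deubiquitinase, was at 82.9, 86.3, 88.4, 89.1 and 91.1 FPKM in control clone 2 and at 54.8, 57.8, 59.1, 61.9 and 65.7 FPKM in control clone 1, a difference of 0.54 ± 0.05 (limma adjusted p = 1.15e-05). Neither gene overlapped between these clones. Psmb3 differed by 0.42 ± 0.07 (limma adjusted p = 0.000671), and Psmd10, gankyrin, by 0.56 ± 0.08 (limma adjusted p = 0.000267). Among activators the largest difference was that of Psme2, 0.53 ± 0.17 (limma adjusted p = 0.0275), and among core chaperones that of Psmg3, 0.39 ± 0.12 (limma adjusted p = 0.0283). The inhibitor Psmf1 differed by 0.27 ± 0.13 (limma adjusted p = 0.143). Psmc6 was at 67.3 to 76.2 FPKM in control clone 2 and 64.1 to 77.1 FPKM in control clone 1, a difference of 0.02 ± 0.06 (limma adjusted p = 0.858).

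Within T-ERG, 5 of 6 ATPases and the activator Psme3 were higher in clone 2 than in clone 1, and a few genes were lower. In limma, 14 of 45 genes were higher in clone 2 (background 17%) and 3 were lower (background 13.5%), so the share of lower genes was below the background. The difference was above 0 for 34 of 45 genes (background 54.1%). The median difference was 0.13 log2 units, against 0.03 over all genes. By role, 0 of 7 alpha genes, 2 of 7 beta genes, 5 of 6 ATPases, 2 of 3 base scaffold and receptor genes and 3 of 8 lid genes were higher. Leaving out single libraries ended the calls of Psmb7, Psmc1, Psmc3 and Psmd2, and leaving out the 2 unnumbered libraries ended that of Psmd13 too.

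Psmc4 was at 131, 145, 155, 157 and 159 FPKM in T-ERG clone 2 and at 97.0, 107, 109.7, 114 and 130.04 FPKM in T-ERG clone 1. The clones did not overlap, by a margin of 131.02 FPKM in clone 2 to 130.04 FPKM in clone 1, and the difference was 0.42 ± 0.08 (limma adjusted p = 0.00192). Psmc5, another ATPase, differed by 0.34 ± 0.04 (limma adjusted p = 0.000208), and Psme3 by 0.50 ± 0.10 (limma adjusted p = 0.00275), at 70.4 to 91.0 FPKM in T-ERG clone 2 and 45.5 to 64.3 FPKM in T-ERG clone 1. In the alpha ring the largest T-ERG difference was that of Psma5, 0.20 ± 0.07 (limma adjusted p = 0.0633), and Psma3 differed by 0.05 ± 0.05 (limma adjusted p = 0.483). Psmb3 had the largest of the beta ring, 0.22 ± 0.04 (limma adjusted p = 0.00165), Psmd1 that of the base scaffold, 0.29 ± 0.04 (limma adjusted p = 0.000147), and Psmg1 that of the core chaperones, 0.39 ± 0.14 (limma adjusted p = 0.0602). The inhibitor Psmf1 differed by -0.24 ± 0.09 (limma adjusted p = 0.0781).

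The genes lower in T-ERG clone 2 were a proteasome activator, a cap chaperone and a lid subunit. Psme4 was at 26.0, 26.8, 28.2, 28.7 and 29.9 FPKM in T-ERG clone 2 and at 35.8, 36.9, 39.3, 39.5 and 42.6 FPKM in T-ERG clone 1, a difference of -0.46 ± 0.06 (limma adjusted p = 0.000183). Psmd10 was at 23.7, 26.0, 26.3, 27.1 and 28.1 FPKM in T-ERG clone 2 and at 31.7, 33.0, 33.7, 38.3 and 39.2 FPKM in T-ERG clone 1, a difference of -0.41 ± 0.07 (limma adjusted p = 0.00153). Psmd8 was at 169, 169, 172, 183 and 185 FPKM in T-ERG clone 2 and at 194, 201, 210.4, 215 and 227 FPKM in T-ERG clone 1, a difference of -0.25 ± 0.05 (limma adjusted p = 0.00241). None of these 3 genes overlapped between the T-ERG clones. With median centring, 5 of 45 genes were lower in T-ERG clone 2, and 2019 of all 12899 genes were.

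**Figure D5:**
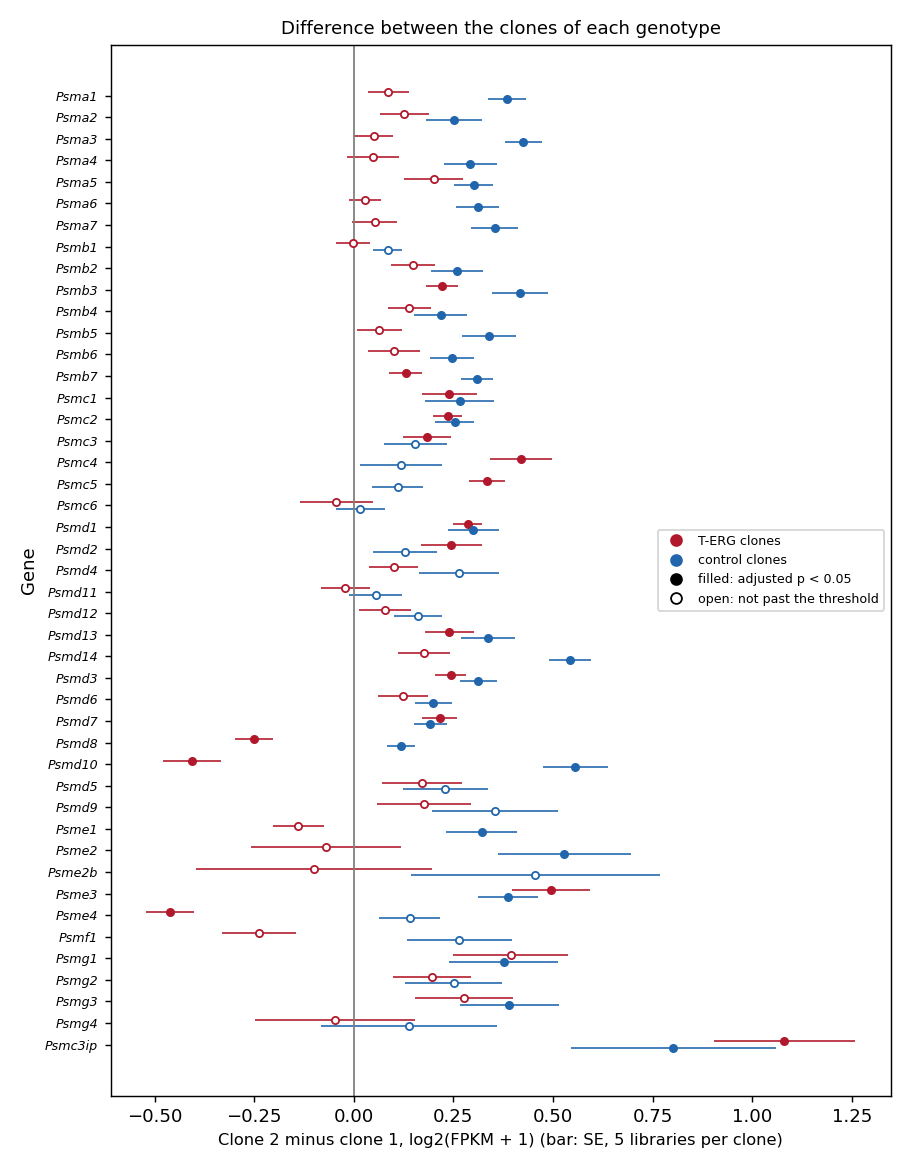
Points are differences clone 2 minus clone 1 in log2(FPKM + 1) within T-ERG (red) and within control (blue), with bars for the SE on 5 libraries per clone; filled points passed an adjusted p of 0.05. Alpha ring genes are filled in control and open in T-ERG, and Psmd10 and Psmd8 are filled on opposite sides of 0.

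The difference between clone 2 and clone 1 was itself compared between the genotypes. In limma on 20 libraries, 13 of 45 genes passed (background 26.4%), a share near that of all genes. The difference was more positive in T-ERG for Psmc5 alone (background 9.75%), a call that ended when any 1 of 14 libraries was left out, and more negative for the other 12 (background 16.7%). Of these, 4 belong to the alpha ring (Psma1, Psma3, Psma6 and Psma7). Psmd10 had the largest value, with -0.41 in T-ERG and 0.56 in control, a difference of -0.96 ± 0.11 (limma adjusted p = 1.00e-06). After quantile normalization 2 genes were more positive and 9 more negative, and the split over all genes was 1643 and 1743 in place of 1258 and 2150. The sign and size of this comparison depend on which clones share a number, and the sources used here do not state whether those clones are linked.

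Within clones the core and cap subunits varied little and moved together weakly. The median SD between domes of the same clone was 0.0992 log2 units for the 31 core and cap subunits, against 0.201 over all tested genes, which include many genes at lower levels. After the clone mean was subtracted, each subunit was set against the mean of the other subunits over the 20 libraries. The median correlation was 0.236, from -0.217 for Psmd3 to 0.671. For the 12854 tested genes outside the family the median was -0.0202, with a wider range of -0.876 to 0.877. The points share libraries, and a library with a different overall scale moves all genes.

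Among 11 tested partners of the proteasome without a Psm symbol, the median difference between the genotypes was 0.15 log2 units, and 5 had clone means separated with T-ERG higher (background 21.7%) and 2 with T-ERG lower (background 23.2%). Between the T-ERG clones their median was -0.03. Adrm1, a ubiquitin receptor of the cap, was at 74.3 to 105 FPKM in T-ERG and 57.0 to 74.0 FPKM in control libraries, without overlap, a difference of 0.43 ± 0.14 (limma adjusted p = 0.574). Usp14, a deubiquitinase that docks on the base, had the largest difference, 0.47 ± 0.25. Pomp, the chaperone that matures the core, had 0.16 ± 0.13. Among 6 ubiquitin shuttle genes, 1 was separated in each direction, near the background of 21.7% higher and 23.2% lower, and among 6 ubiquitin and E1 genes 4 were separated with T-ERG higher.

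The genes of the NRF1 pathway did not move in 1 direction. The median difference of 13 tested genes was -0.13 log2 units, and 3 had clone means separated with T-ERG higher, near the background of 21.7%, and 5 with T-ERG lower (background 23.2%). Nfe2l1, which encodes NRF1, had a median of 95.7 FPKM (80.8 to 112) in T-ERG and 112 FPKM (89.7 to 139) in control libraries, a difference of -0.25 ± 0.19 (limma adjusted p = 0.657). Its relative Nfe2l3 was at 4.00 to 10.5 FPKM in T-ERG and 13.3 to 25.1 FPKM in control libraries, without overlap, the largest difference of the list at -1.41 ± 0.34 (limma adjusted p = 0.574). Nfe2l2 (NRF2), a factor of the oxidative stress response, had a median of 127 FPKM in T-ERG and 91.7 FPKM in control libraries, a difference of 0.44 ± 0.22 (limma adjusted p = 0.577).

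Nfe2l1 and most proteasome genes took opposite directions between the control clones. Nfe2l1 averaged 99.1 FPKM in control clone 2 and 129.5 FPKM in control clone 1, a difference of -0.38 ± 0.07 (limma adjusted p = 0.000831). In T-ERG it averaged 89.9 FPKM in clone 2 and 101.5 FPKM in clone 1, a difference of -0.17 ± 0.08 that did not pass (limma adjusted p = 0.131). These are RNA levels, and the part of NRF1 in the proteasome differences was not tested.

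The inducible subunits of the immunoproteasome, which replace the proteolytic subunits in immune or interferon-treated cells, were low. Psmb8 reached at most 0.72 FPKM and Psmb9 at most 4.10 FPKM in any library. Psmb10 was at 2.64 to 14.3 FPKM in T-ERG and 3.58 to 12.7 FPKM in control libraries. Of the 6 tested genes in the list with antigen transport, 3 had clone means separated with T-ERG lower (background 23.2%), among them Tap2, a peptide transporter, with a difference of -0.54 ± 0.19 (limma adjusted p = 0.574).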

How the data were processed

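The authors deposited log2 values per gene and library, which returned FPKM with 2 decimals after subtraction of a pseudocount of 1 and were therefore read as log2(FPKM + 1). Per the submitters' processing notes, RSEM 1.3.0, DESeq2 and build mm10 were used. The sources used here do not give the step each served, the aligner or the annotation. Of the T-ERG columns, 2 shared a header number and were used as unnumbered libraries of clone 2, the clone of all samples left without a column. The 4 whole-genome libraries were not used here. A luminal marker is not reported here.

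Genes with at least 1 FPKM in at least 5 libraries were tested with limma 3.58.1 in R 4.3.3 (moderated, intensity trend, two-sided, Benjamini-Hochberg over 12899 genes, threshold 0.05). Log2 differences understate changes of low genes. The code was tested on simulated data. The genes, pathway lists and tests were chosen with earlier results of these data known. Values are given for the catalytic genes, for the smallest and largest p of each role, for the 5 highest and 5 lowest genotype differences and for the largest clone difference of each role. Psma7, Psmc5, Psmd11, Adrm1, Tap2 and Pomp, and genes named only within a count, were named after their values were seen. Tables were handled with Python 3.11.15 and pandas 2.3.3.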

Additional observations from a re-analysis of the deposited data

Results flagged for a closer look

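Among 180 groups of 5 domes (45 genes in 4 clones), 11 had 1 library whose gap to the others was large against the range of its group. Chance alone gives such a gap in about 1 in 20 groups. In T-ERG clone 2, the unnumbered library b was at 27.5 FPKM for Psmd9, with the others at 23.5 to 24.5, and at 199 FPKM for Psmb4, with the others at 184 to 188. In T-ERG clone 1, replicate 1 was at 238 FPKM for Psma3 (others 201 to 209.5), at 124 FPKM for Psmb1 (others 114 to 116) and at 269.8 FPKM for Psmb6 (others 208 to 221), so 3 of the 11 fell on this library. Replicate 5 of the same clone was at 194 FPKM for Psmc1, with the others at 151 to 161. In control clone 2, replicate 10 was at 89.2 FPKM for Psmd7 (others 90.9 to 91.6), replicate 8 at 133 FPKM for Psmc5 (others 117 to 121) and replicate 9 at 108 FPKM for Psmd13 (others 85.4 to 90.5). In control clone 1, replicate 3 was at 81.7 FPKM for Psmd12 (others 71.0 to 73.3) and replicate 5 at 134 FPKM for Psmb5 (others 159 to 161).

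The difference between clone 2 and clone 1 was not the same in T-ERG and control for 13 of 45 genes, by limma's interaction test with Benjamini-Hochberg adjustment over all genes. The share over all tested genes was 26.4%, near that of these genes, and the values depend on which clones share a number. The values are the clone difference in T-ERG minus that in control, in log2 units. In the core they were -0.30 for Psma1 (adjusted p = 0.00280), -0.38 for Psma3 (0.000245), -0.28 for Psma6 (0.00298), -0.30 for Psma7 (0.00986), -0.28 for Psmb5 (0.0304) and -0.18 for Psmb7 (0.0200). In the cap they were 0.23 for Psmc5 (0.0416), -0.37 for Psmd14 (0.00262), -0.37 for Psmd8 (6.26e-05) and, for the chaperone Psmd10, -0.96 (1.00e-06). Among activators and the inhibitor they were -0.46 for Psme1 (0.00426), -0.60 for Psme4 (7.72e-05) and -0.50 for Psmf1 (0.0279). Leaving out single libraries ended the calls of Psmb5, Psmc5 and Psmf1.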

How the results depend on the processing

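The genotype median of the 45 genes ran from 0.26 to 0.32 log2 units over the settings tried and from 0.18 to 0.43 when a library or clone was left out. Members with separated clone means, T-ERG higher, numbered 28 to 38 over settings. The 28 came from libraries scaled to equal sums (17.6% of all genes) and the 38 from median centring (23.8%). In leave-outs they numbered 33 to 39. The 33 came without control replicate 6 or T-ERG replicate 1 (21.5% and 21.9% of all genes) and the 39 without control clone 2 (45.2%). Those with T-ERG lower numbered 1 to 3 over settings and 0 to 7 in leave-outs. The 7 came without control clone 1, where 40.3% of all genes were lower. Genes called between genotypes were 4737 with 20 independent libraries, 1398 with the clone as a random block and 0 in every leave-out. Between control clones, median centring gave 17 higher members and a median of 0.18, and quantile normalization 16 and 0.18. Of all 12899 genes, 2390 were higher with centring and 2354 with quantile normalization. Between T-ERG clones, centring gave 5 lower members and 2019 lower genes among all 12899.

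With the clone number as replicate block, the fit called 0 genes, and 2142 had an unadjusted p below 0.05. The labels link no clones by number, and with only 2 pairs, the correlation across genes of the clone differences was 0.168. The genotype difference took the other sign for Psmb5 (-0.0085) and Psme2 (-0.21) without control clone 1, for Psmd10 (0.050), Psmd8 (0.016) and Psme4 (0.061) without T-ERG clone 2, for Psmd10 (0.13) and Psme1 (0.049) without control clone 2, and for Psme2 (-0.012) without T-ERG replicate 5. The leave-outs of these genes ranged over -0.0085 to 0.33 (Psmb5), -0.43 to 0.13 (Psmd10), -0.23 to 0.016 (Psmd8), -0.27 to 0.049 (Psme1), -0.21 to 0.32 (Psme2) and -0.40 to 0.061 (Psme4). None of these differences had passed. FPKM holds no counts, so intervals for depth cannot be given, and each genotype has only 2 clones.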
